A study of Mus musculus with 4 samples.

Results

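The type I interferon response genes were followed in lipopolysaccharide-treated BV-2 cells with and without knockdown of SIX2. The set was a written list of 42 gene names: the cytokine gene Ifnb1 and 41 genes that interferon is known to induce. It was chosen with earlier results of these data known. Of the 42 listed genes, 41 were rows of the deposited FPKM table, which holds 24473 genes. Ifnb1 was found by its identifier only in the count table of 55401 genes. Counts were high enough to test 38 of the 42, among 15733 tested genes in all.

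Gene expression was measured by RNA sequencing in 4 libraries of BV-2, an immortalised mouse microglial cell line used as a model of the macrophages of the brain. Each culture, controls included, had received lipopolysaccharide (LPS), a component of the bacterial cell wall, at 100 ng/mL for 24 h, and no library without LPS was analysed here. The 2 control libraries carried the genotype label WT and the titles sh c1 and sh c2. The 2 knockdown libraries carried the genotype label SIX2 knockdown and the titles sh s1 and sh s2; SIX2 is a homeobox transcription factor. The labels do not say whether the replicates were separate cultures, and the p-values below therefore cover the spread among these 4 libraries alone, part of which may be technical. In bulk RNA, fewer cells expressing a gene and less RNA per cell cannot be told apart.

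The libraries held 61.0 to 75.7 M counts. From 42.1% to 47.2% of values from 1 to 20 were multiples of 4, so 1 sequenced fragment was assumed to be about 4 counts. On that assumption 3 fragments, or 12 counts, were taken as the limit that a count of 0 allows. Six2 had a count of 0 in all 4 libraries, and the labels could not be checked on the targeted gene. The 12 microglia and macrophage markers summed to 1814 and 1841 CPM, the count scaled to library size, in control and 1677 and 1608 CPM in knockdown libraries. Within that sum 5 markers lay lower without overlap and 3 higher, where 23.8% of all tested genes lay lower and 23.8% higher. Of the 5, 3 were past the adjusted threshold in edgeR (0.547% of all tested genes were lower past it). Examples are Csf1r at 310, 312, 231 and 215 CPM and Trem2 at 58.1, 59.9, 87.8 and 76.4 CPM in the order control 1, control 2, knockdown 1, knockdown 2. P2ry12 and Cx3cr1, which mark microglia in the brain, stayed under 1 CPM in each library. Markers of oligodendrocytes summed to 14.9 and 14 CPM in control but 8.13 and 0.316 CPM in knockdown libraries, with 3 of 5 at 0 in knockdown 2. Neuron markers went the same way, from 6.14 and 5.63 CPM to 3.19 and 0 CPM, with all 5 at 0 in knockdown 2, and astrocyte markers from 7.45 and 6.03 CPM to 3.73 and 2.13 CPM. Lymphocyte and fibroblast markers summed to under 1 CPM in each library. Of the 3 plasmacytoid dendritic cell markers, which summed to 33.7, 28.6, 21 and 18.4 CPM in the order control 1, control 2, knockdown 1, knockdown 2, nearly all was Tcf4, and Siglech was at 0.0647 CPM or less. The 4 endothelial markers summed to 217 to 229 CPM, nearly all of it Kdr. The part of these markers in the results below was not tested.

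Cells that sense LPS through TLR4 and its adaptor TICAM1 activate IRF3 and transcribe the interferon beta gene. The secreted interferon binds the receptor IFNAR1-IFNAR2 on the same and neighbouring cells, the kinases JAK1 and TYK2 phosphorylate STAT2, and it joins IRF9 in a complex that binds the interferon-stimulated response element in the promoters of the genes described here. Many products of these genes sense foreign nucleic acid or block steps of viral growth, and IRF7 feeds back to raise interferon output; in microglia the response is known from infection, ageing and neurodegeneration.

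Promoters are shown for 6 genes on which the results turn: 3 genes with lower values in knockdown libraries whose promoter held the response element, 2 such genes without it, and Oas1g, which held it and was not lower. Sequences are from RefSeq on GRCm38.p6, in which 33 of the 42 genes were matched, and run 5′ to 3′ over the 250 bases before the start site, or up to the GENCODE gene start where that lies further upstream. Capitals mark the response element core, which is 2 copies of GAAA with any 2 bases between them, searched on both strands with overlapping matches kept. The windows are chr12:26456453-26456702, minus strand, for Rsad2; chr10:128270248-128270497, plus strand, for Stat2; chr4:156200819-156201068, minus strand, for Isg15; chr12:26468965-26469203, plus strand, for Cmpk2; chr6:29526375-29526624, plus strand, for Irf5; and chr5:120887614-120887863, minus strand, for Oas1g.
Rsad2: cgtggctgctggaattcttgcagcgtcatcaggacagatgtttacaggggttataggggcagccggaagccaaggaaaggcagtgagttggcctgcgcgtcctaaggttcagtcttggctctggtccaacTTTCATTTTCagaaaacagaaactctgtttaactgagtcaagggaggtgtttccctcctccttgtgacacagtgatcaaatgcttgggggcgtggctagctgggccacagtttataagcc
Stat2: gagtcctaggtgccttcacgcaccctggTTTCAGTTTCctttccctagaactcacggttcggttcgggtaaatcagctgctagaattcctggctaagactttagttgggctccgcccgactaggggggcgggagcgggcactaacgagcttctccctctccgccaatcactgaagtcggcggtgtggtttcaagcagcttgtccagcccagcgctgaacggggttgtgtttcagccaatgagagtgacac
Isg15: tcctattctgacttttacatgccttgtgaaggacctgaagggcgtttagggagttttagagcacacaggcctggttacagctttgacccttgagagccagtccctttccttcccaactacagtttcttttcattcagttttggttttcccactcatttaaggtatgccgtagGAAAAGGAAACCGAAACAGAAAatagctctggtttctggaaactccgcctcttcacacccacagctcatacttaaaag
Cmpk2: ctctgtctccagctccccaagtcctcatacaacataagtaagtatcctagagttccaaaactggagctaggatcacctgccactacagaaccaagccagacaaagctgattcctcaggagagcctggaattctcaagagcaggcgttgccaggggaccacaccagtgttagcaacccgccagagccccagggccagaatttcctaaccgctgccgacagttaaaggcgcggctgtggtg
Irf5: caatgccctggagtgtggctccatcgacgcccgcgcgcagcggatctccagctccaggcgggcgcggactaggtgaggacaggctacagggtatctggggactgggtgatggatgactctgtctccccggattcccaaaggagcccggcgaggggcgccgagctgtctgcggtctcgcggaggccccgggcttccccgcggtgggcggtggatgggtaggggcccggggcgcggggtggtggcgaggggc
Oas1g: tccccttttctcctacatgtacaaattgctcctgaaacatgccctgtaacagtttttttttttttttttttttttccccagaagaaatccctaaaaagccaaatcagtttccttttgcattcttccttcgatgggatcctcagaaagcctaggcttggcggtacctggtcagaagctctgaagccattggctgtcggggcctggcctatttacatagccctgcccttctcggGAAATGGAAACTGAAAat

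The Rsad2 promoter held 1 match, on the opposite strand, starting 120 bases before the start site, and the Stat2 promoter 1 match starting 222 bases before it. Isg15 held 3 matches in a run of overlapping copies, the nearest starting 66 bases before the start site, and Oas1g held 2 overlapping copies starting as near as 12 bases. Cmpk2 and Irf5 held none. Over the full window of 300 bases (250 before to 50 after the start site), the core was in 18 of the 33 matched promoters (54.5%), against 3.44% of all 32851 promoters of that length. The gamma-activated site motif TTCNNNGAA was in 8 of 33 (24.2%) against 8.3% of all promoters. Rsad2 and Cmpk2 lie next to each other on chromosome 12 in GENCODE M21 on GRCm38, at 26442746 to 26456452 on the minus strand and 26469204 to 26479837 on the plus strand, with 12751 bases and 0 other genes between them.

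The level of each gene was read on the FPKM scale, which divides by gene length and so allows genes to be compared. Bst2, which encodes tetherin, a membrane protein that holds budding virus on the cell, was highest with a mean over the 4 libraries of 188 FPKM. Irf5, a transcription factor of inflammatory macrophages, came next with 30.6 FPKM. Oasl1, a member of the oligoadenylate synthetase family that restrains IRF7 translation, had 18.4 FPKM, and Oas1a, a synthetase of the RNase L pathway, had 17.6 FPKM; their libraries overlapped. Ifi35, Isg15, Eif2ak2, Adar and Oas1g followed at 11.3, 8.47, 6.39, 6.24 and 6.06 FPKM. Thus 9 genes had a mean of at least 5 FPKM, 12 lay from 1 to 5 FPKM and 20 were under 1 FPKM. The single-library values of Bst2, from 169 to 208 FPKM, did not overlap those of any other gene of the set, and those of Irf5, from 25.1 to 38.8 FPKM, overlapped only those of Oasl1. Of the genes at the low end, Mx1, Ifi44 and Ifit3b had counts of 4, 8 and 9 in control 1 and 0 in the other 3 libraries, all below 12 counts, and Ifnb1 had a count of 0 in all 4 libraries. These 4 genes were not tested, and a count of 0 allows up to 0.159 to 0.197 CPM per library, a limit that covers counting error only.

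**Figure D1:**
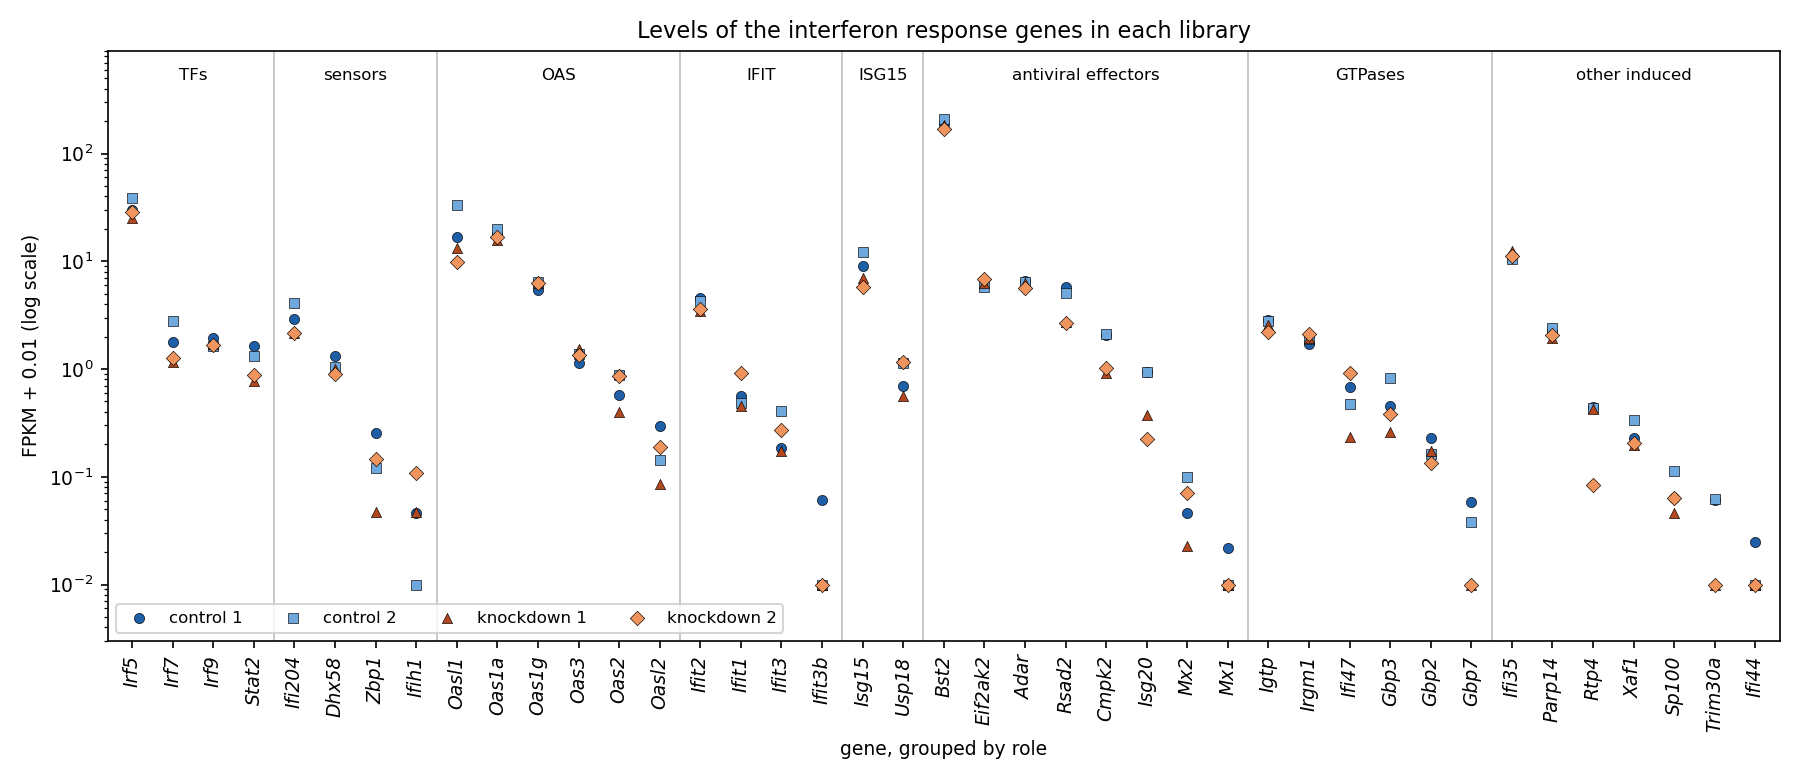
FPKM plus 0.01 (log axis) of each of the 41 genes of the FPKM table in the 4 libraries, genes grouped by role; each point is 1 library. Bst2 stands highest at a mean of 188 FPKM, 20 genes have a mean under 1 FPKM, and the 2 knockdown libraries lie below both controls for Rsad2, Cmpk2 and Stat2.

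In the knockdown libraries 1 interferon response gene was lower past the threshold and none was higher: Rsad2, the gene of viperin, a radical-SAM enzyme that makes a chain-terminating nucleotide. In edgeR's quasi-likelihood test with Benjamini-Hochberg adjusted p under 0.05, over all 15733 genes, 86 (0.547%) were lower and 64 (0.407%) higher. At an unadjusted p under 0.05, 11 of the 38 tested genes were lower, where 6.7% of all genes were, and 0 were higher, where 7.52% of all genes were. Gbp7 and Trim30a, which are among the 11, had a count of 0 in both knockdown libraries and passed the filter on low counts through the controls, so that only a lower value could be found for them. At a mean over the 4 libraries of at least 1 CPM, which leaves both out, 9 of 29 genes were lower and 0 higher at an unadjusted p under 0.05, against 7.4% and 9.42% of all 11968 genes at that level. DESeq2 called 3 of the 38 lower (Rsad2, Cmpk2 and Stat2) and 0 higher, against 2.6% of all genes called lower and 2.49% called higher. Both knockdown libraries lay below both controls for 21 of the 38 genes and above them for 4. Of all tested genes, 23.8% lay below and 23.8% above. The 21 include Gbp7 and Trim30a, and the groups overlapped for the other 13. At a mean of at least 1 CPM, 18 of 29 genes lay below and 3 above. Of all 11968 genes at that level, 22.5% lay below and 26.9% above.

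Rsad2 had 27.7 and 23.8 CPM in the control libraries and 13.2 and 12.9 CPM in the knockdown libraries. Both knockdown libraries were near the same low value, and the groups did not overlap. The mean went from 25.8 ± 2.78 to 13.1 ± 0.213 CPM (SD, n = 2 each), and Rsad2 fell by 0.98 ± 0.13 on the log2 scale, 1.97-fold (edgeR adjusted p = 0.0318). Its call was lost without any 1 of the 4 libraries, with edgeR adjusted p from 0.0823 to 0.184, while the log2 fold change stayed from -1.08 to -0.87.

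Its neighbour Cmpk2, a mitochondrial nucleotide kinase thought to supply the substrate of viperin, had 9.58 and 9.59 CPM in control and 4.25 and 4.83 CPM in knockdown libraries. The controls were nearly equal and the groups did not overlap, with a log2 fold change of -1.08 ± 0.19 that missed the threshold (edgeR adjusted p = 0.0725) and passed it in DESeq2 (adjusted p = 0.000276). Neither Rsad2 nor Cmpk2 shares a stretch of 150 bases of exon sequence with another gene.

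Among the other antiviral effectors, Isg20, a 3′ to 5′ exonuclease of single-stranded RNA, had 1.95 and 1.92 CPM in control and 0.783 and 0.474 CPM in knockdown libraries, without overlap. The log2 fold change of Isg20 was -1.62 ± 0.47 (edgeR adjusted p = 0.204), at counts of only 149, 119, 58 and 30. Bst2, at 190 and 205 CPM in control and 186 and 173 CPM in knockdown libraries, had a log2 fold change of -0.14 ± 0.08 (edgeR adjusted p = 0.495). Eif2ak2, the RNA-activated kinase PKR that stops translation, had 37.8 and 32.1 CPM in control and 36.4 and 39.5 CPM in knockdown libraries, which overlapped. Adar, the RNA-editing adenosine deaminase, had 58.9 and 57.5 CPM against 57.4 and 51.6 CPM, a log2 fold change of -0.09 ± 0.09; 16.8% of its exon bases overlap Chrnb2 on the opposite strand. Mx2, of the antiviral dynamin-like GTPase family, is annotated in GENCODE M21 as a polymorphic pseudogene. It was near the detection limit with counts of 11, 23, 4 and 16. So of the 7 tested effectors, 3 were lower at an unadjusted p under 0.05 (6.7% of all genes) and 5 lay lower without overlap (23.8% of all genes).

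**Figure D2:**
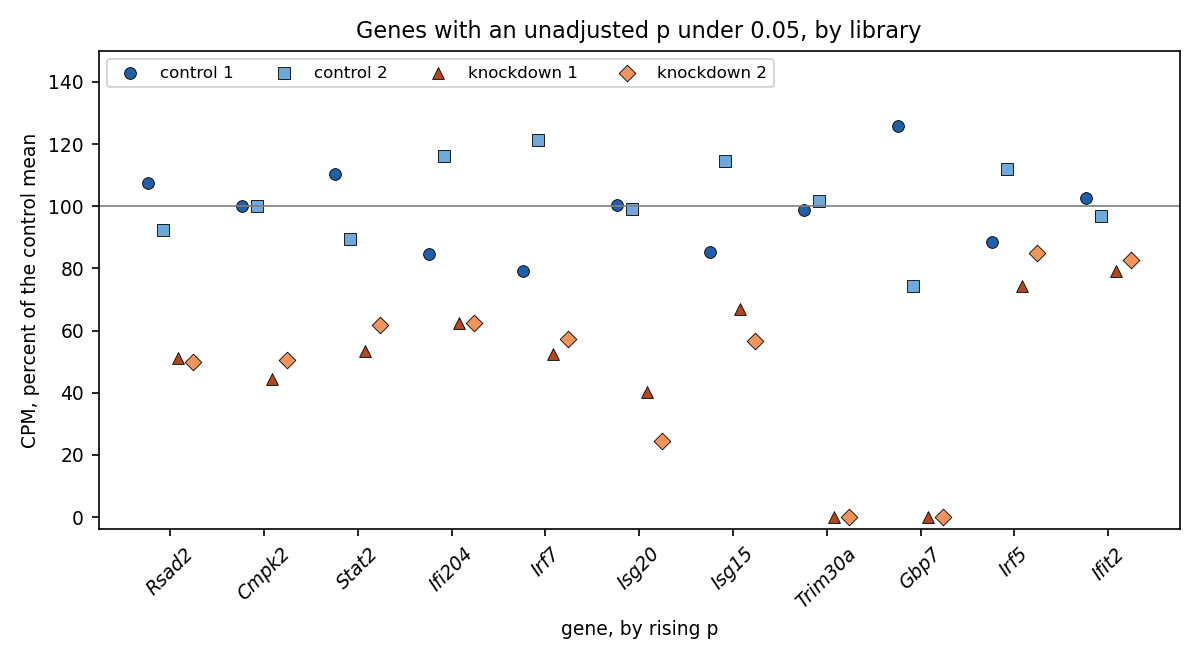
CPM as a percentage of the control mean (linear axis) in each of the 4 libraries for the 11 genes with an unadjusted p under 0.05, ordered by p; each point is 1 library. The knockdown points lie below both controls for each gene, with the smallest gaps at Irf5 and Ifit2.

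Of the 4 transcription factors, 3 were lower without overlap at an unadjusted p under 0.05; of all genes, 23.8% were lower without overlap and 6.7% at that p. Stat2, a subunit of the interferon-activated complex, had 10.6 and 8.59 CPM in control and 5.12 and 5.92 CPM in knockdown libraries. Both knockdown libraries were below both controls; the log2 fold change of Stat2 was -0.80 ± 0.20 (edgeR adjusted p = 0.162; DESeq2 adjusted p = 0.0363). Irf7, the factor that amplifies interferon transcription, had 7.51 and 11.5 CPM in control and 4.98 and 5.45 CPM in knockdown libraries. The controls of Irf7 differed more from each other than the knockdown libraries did, and the log2 fold change was -0.86 ± 0.25 (edgeR adjusted p = 0.197). Irf5 had 97.2 and 123 CPM against 81.9 and 93.3 CPM, with a log2 fold change of -0.33 ± 0.13 (edgeR adjusted p = 0.341). The gap between the lower control and the higher knockdown library of Irf5 was smaller than the gap between its controls, and exons of Tnpo3 on the opposite strand overlap it. Without control replicate 2 the log2 fold change was -0.15 for Irf5 and -0.52 for Irf7. Irf9, the DNA-binding partner of STAT2, had 11.5, 9.75, 10.3 and 10.2 CPM in the order control 1, control 2, knockdown 1, knockdown 2. Its groups overlapped and its log2 fold change was -0.05 ± 0.16, so the 2 members of the set that join the same complex, Stat2 and Irf9, had different values; the difference between their changes was not tested.

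The nucleic acid sensors were mixed. Ifi204, a DNA sensor of the p200 family, had 11.6 and 15.9 CPM in control and 8.57 and 8.56 CPM in knockdown libraries. The groups of Ifi204 did not overlap and the log2 fold change was -0.68 ± 0.19 (edgeR adjusted p = 0.192); 6.77% of its 150-base stretches are shared with Ifi211, and without control replicate 2 its log2 fold change was -0.43. Dhx58, which encodes the RNA helicase LGP2, had 4.82, 3.7, 3.7 and 3.32 CPM in the same order, with a log2 fold change of -0.28 ± 0.27. Ifih1, the gene of the double-stranded RNA sensor MDA5, had counts of 25, 0, 26 and 58, and its higher knockdown values rest on so few fragments that its log2 fold change of 1.91 had an SE of 1.57. The fourth, Zbp1, a sensor of Z-form nucleic acid, had counts of 74, 27, 12 and 35, with overlap.

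In the OAS family, whose enzymes make the activator of RNase L, 0 of 6 genes had an unadjusted p under 0.05 in edgeR. Of all tested genes, 6.7% were lower and 7.52% higher at that p, so 0 of 6 says little. In DESeq2 0 passed the adjusted threshold, against 2.6% of all genes lower and 2.49% higher, and Oasl1 had an unadjusted p of 0.0355. Without overlap 2 of the 6 lay lower and 1 higher, against 23.8% of all tested genes in either direction. Oasl1 had 48.4 and 96 CPM in control and 39 and 29 CPM in knockdown libraries. Both knockdown libraries lay below both controls, but control 2 was 1.98 times control 1, and the log2 fold change of Oasl1 was -1.09 ± 0.46 (edgeR adjusted p = 0.464). Without control replicate 2, that log2 fold change was -0.51. Oas1a had 37.3 and 41.2 CPM against 33.5 and 35.5 CPM, a log2 fold change of -0.19 ± 0.11. Oas1g, its neighbour, had 13.9, 16.3, 16.4 and 16.6 CPM and a log2 fold change of 0.13 ± 0.14. These 2 genes share sequence: 32.4% of the 150-base stretches of Oas1a and 24.1% of those of Oas1g are common to both, so counts could be split between them and their values are uncertain. Oas3, the largest synthetase of the family, had 8.88 and 10.6 CPM against 12.2 and 10.6 CPM, a log2 fold change of 0.23 ± 0.17. Oas2, at 2.81, 4.22, 1.97 and 4.3 CPM, and Oasl2, at 2.02, 0.938, 0.567 and 1.28 CPM, overlapped, and the replicates of either group differed as much as the groups.

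The IFIT genes encode proteins that bind foreign or uncapped RNA. Ifit2, the highest of them, had 19.6 and 18.5 CPM in control and 15.1 and 15.8 CPM in knockdown libraries, without overlap, and a log2 fold change of -0.30 ± 0.13 (edgeR adjusted p = 0.35). Ifit1 had 1.64, 1.37, 1.32 and 2.72 CPM, with knockdown 2 highest, and its sign turned to -0.18 without knockdown replicate 2. Ifit3, with counts of 26, 48, 24 and 33, overlapped, and it shares 18.5% of its stretches with the near-identical Ifit3b. In the ISG15 system, Isg15, a ubiquitin-like modifier, had 6.97 and 9.38 CPM in control and 5.48 and 4.63 CPM in knockdown libraries. Isg15 showed no overlap and a log2 fold change of -0.69 ± 0.23 (edgeR adjusted p = 0.256). Usp18, the protease that removes ISG15 and also damps the interferon receptor, had 2.14 and 3.46 CPM against 1.77 and 3.62 CPM, so the first library of each group was low, the second high, and the groups overlapped.

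Some interferon-inducible GTPases attack the membranes around intracellular microbes. Gbp7 had counts of 23 and 11 in control and 0 and 0 in knockdown libraries (edgeR adjusted p = 0.261). Its control mean, which carries counting error of its own, was 1.39 times a limit of 12 counts in each knockdown library, scaled by library totals. The count of control 2 was itself under that limit, and 8.77% of the stretches of Gbp7 are shared with the gene model Gm43802. Gbp3 had 1.61 and 2.94 CPM in control and 0.932 and 1.37 CPM in knockdown libraries, with a log2 fold change of -0.98 ± 0.46 (edgeR adjusted p = 0.412) that was -0.48 without control replicate 2. Igtp, at 6.41 and 6.16 against 5.83 and 5.09 CPM, was lower without overlap, and Irgm1, at 11 and 12.1 against 12.6 and 13.9 CPM, was higher without overlap, with log2 fold changes of -0.20 ± 0.21 and 0.20 ± 0.15. Ifi47, at 1.82, 1.25, 0.635 and 2.53 CPM, and Gbp2, with counts of 47, 27, 34 and 23, overlapped, and the 2 knockdown libraries of Ifi47 lay below and above both of its controls. Thus the GTPases as a group held values on either side of 0.

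The other induced genes were at low or middle levels. Trim30a, a ubiquitin ligase that damps signalling from Toll-like receptors, had counts of 18 and 15 in control and 0 and 0 in knockdown libraries (edgeR adjusted p = 0.26). Scaled by library totals, its control mean was 1.39 times a limit of 12 counts in each knockdown library. That value allows for no counting error in the controls, which held about 4 fragments each if 1 fragment is 4 counts. Parp14, an ADP-ribosyltransferase, had 23.1 and 24.2 CPM against 20.2 and 21.7 CPM and a log2 fold change of -0.17 ± 0.12. Ifi35 had 21.3 and 20 CPM against 24.1 and 21.7 CPM, higher without overlap and with a log2 fold change of 0.15 ± 0.12. Xaf1, a regulator of cell death, had 1.15 and 1.7 CPM in control and 1.01 and 1.06 CPM in knockdown libraries. Rtp4 had 1.04, 1, 0.999 and 0.19 CPM, so that knockdown 2 alone was low; its model shares exon sequence with Gm45338 (6.92% of stretches). Sp100, a nuclear body protein gene, had counts of 37, 56, 25 and 31.

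**Figure D3:**
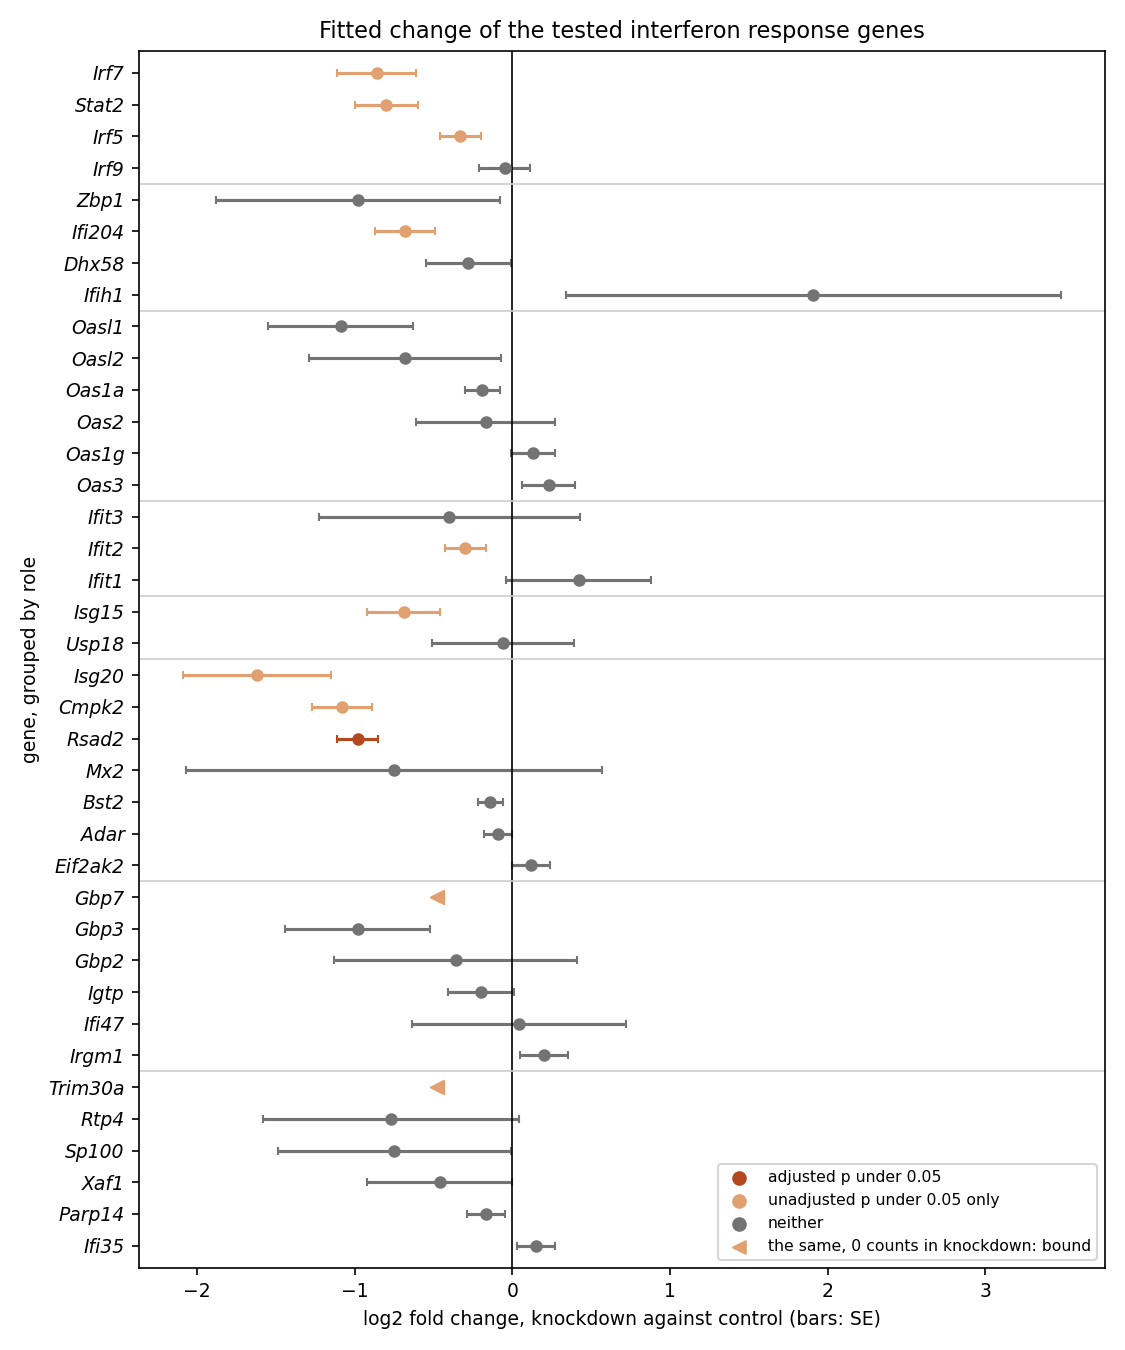
Log2 fold change, knockdown against control, of the 38 tested genes with the SE from the fit as bars, grouped by role; triangles are bounds for the 2 genes with 0 counts in both knockdown libraries. Fitted values lie below 0 for 30 genes, among them these 2, for which only a lower value could be found. Rsad2 is the 1 gene with an adjusted p under 0.05.

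Across the tested genes, 30 of 38 (78.9%) had a log2 fold change below 0 and the median was -0.34, where 51.1% of all tested genes lay below 0 with a median of -0.01. Low counts shift this description, since genes of all kinds under 1 CPM had a median of -0.26. Among genes with a mean over the 4 libraries of at least 1 CPM, 22 of 29 interferon response genes lay below 0 with a median of -0.20, against 48.2% of 11968 genes with a median of 0.01. By level, the medians of the interferon response genes and of all tested genes were -0.75 and -0.26 under 1 CPM (9 genes of the set), -0.28 and -0.11 from 1 to 5 CPM (9 genes), -0.49 and -0.03 from 5 to 20 CPM (12 genes), and -0.17 and 0.03 from 20 to 100 CPM (7 genes). In the band from 5 to 20 CPM, 8 of the 12 genes were lower without overlap, against 27% of all genes at that level. Of the 38 genes, 29 lay below the median of their band, and the median distance from it was -0.24. With bands set by FPKM the count was again 29 and the distance -0.26. Gbp7 and Trim30a are among the 29 in either case, among the 30 below 0 and among the 9 under 1 CPM. With 0 counts in both knockdown libraries, only a lower value could be found for them.

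**Figure D4:**
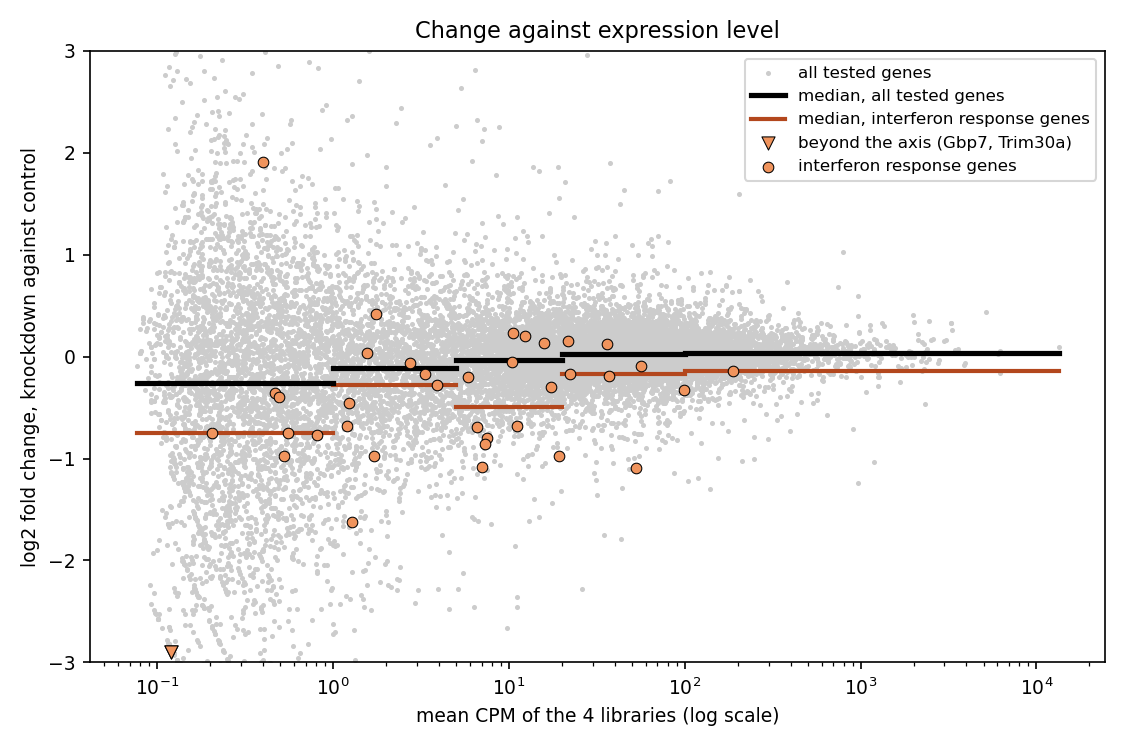
Log2 fold change, knockdown against control, against the mean CPM of the 4 libraries (log axis) for all 15733 tested genes (grey) and the interferon response genes (orange), with medians by level band as lines; the vertical axis is limited to -3 to 3. The line of the interferon response genes lies below that of all genes in each band, by the widest gaps under 1 CPM and from 5 to 20 CPM. The band under 1 CPM holds Gbp7 and Trim30a, for which only a lower value could be found.

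The 2 libraries of a group did not always move together. Expressed as a log2 deviation from the mean of the 4 libraries after adding 0.5 CPM, the median over the 38 genes was 0.06 and 0.16 in control 1 and 2 and -0.25 and -0.09 in knockdown 1 and 2. Both controls were above both knockdown libraries. The distance between the knockdown libraries was of the same order as that between knockdown 2 and control 1, and the pooled SD between replicates was 0.094. Without knockdown replicate 2 the median log2 fold change of the set was -0.53 and without control replicate 2 it was -0.22. Knockdown 1, the lower of the pair here, held more of the oligodendrocyte and neuron markers (8.13 and 3.19 CPM) than knockdown 2 (0.316 and 0 CPM). Among genes of at least 1 CPM, knockdown 2 exceeded knockdown 1 by more than 1.5 times in 5 (Ifit1, Oas2, Oasl2, Usp18 and Ifi47), and the reverse held for 1, Isg20.

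Tested genes averaging 1 CPM or more were also read by whether the promoter held the response element core, as a description. The 12 genes with the core had a median log2 fold change of -0.16, with 7 lower without overlap and 3 lower at an unadjusted p under 0.05. The 12 without it had a median of -0.40, with 8 lower without overlap and 5 lower at that p. Of all genes at that level, 22.5% were lower without overlap and 7.4% at that p. Genes with no matched promoter were left out. The start sites used for Irf9, without the core, and Irgm1, with it, lay 414 and 263 bases inside the GENCODE gene.

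The genes that lead to interferon and pass on its signal were read in the same fit. The transcripts of 20 other interferon genes, among them those of interferons alpha, epsilon, kappa, zeta, gamma and lambda, had a count of 0 in all 4 libraries. Of 21 genes of interferon induction, 0 passed the adjusted threshold in edgeR or in DESeq2, 3 were lower at an unadjusted p under 0.05 (Ikbke, Ticam2 and Cgas; 6.7% of all genes) and 0 higher (7.52% of all genes), with a median log2 fold change of -0.00. Ikbke, an IRF3 kinase, had 59.9 and 54.3 CPM in control and 47.4 and 44.7 CPM in knockdown libraries, Ticam2, a TLR4 adaptor, 15.7 and 17.6 against 12.8 and 11.5 CPM, and Cgas, a DNA sensor, 31.6 and 32.9 against 18.5 and 26.5 CPM. The log2 fold change of Cgas, -0.52 ± 0.18, was -0.29 without knockdown replicate 1 and -0.79 without knockdown replicate 2. Without overlap 6 genes of this list were lower and 4 higher, near the 23.8% of all tested genes in either direction. The lowest p among the genes above 0 belonged to Myd88, an adaptor of Toll-like receptors, at 107 and 101 against 115 and 115 CPM, to Traf3, a ligase that links TICAM1 to the IRF3 kinases, at 23 and 33.8 against 72.3 and 37.8 CPM, and to Traf6, a ligase on the NF-κB branch, at 21.4 and 19.7 against 24 and 23 CPM. Their edgeR adjusted p were 0.45, 0.495 and 0.526, and the log2 fold change of Traf3, 0.96 ± 0.45, was 0.41 without knockdown replicate 1. Tlr4 had 30.9 and 32.6 CPM in control, 4.06 CPM in knockdown 1 and 32.5 CPM in knockdown 2. Its log2 fold change of -0.80 ± 1.28 rested on 1 library and was 0.03 without knockdown replicate 1. Irf3 had 33 and 30.1 CPM against 28.2 and 25.2 CPM, and Ticam1 and Tbk1 overlapped between groups with log2 fold changes of -0.04 ± 0.14 and -0.00 ± 0.10.

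Of 16 genes of receptor signalling, 1 was lower past the threshold (0.547% of all genes), 6 were lower at an unadjusted p under 0.05 (6.7%) and 0 were higher (7.52%), with a median log2 fold change of -0.18. Socs3, a feedback inhibitor of cytokine receptors, had 65.4 and 65.2 CPM in control and 43.2 and 45.6 CPM in knockdown libraries, and fell by 0.56 ± 0.08 on the log2 scale (edgeR adjusted p = 0.0451). Its call, like that of Rsad2, was lost without any 1 library (edgeR adjusted p from 0.131 to 0.219). Tyk2, a receptor kinase, had 44.9 and 47.3 CPM against 33.1 and 35.2 CPM, a log2 fold change of -0.43 ± 0.10 (edgeR adjusted p = 0.123), and was called lower by DESeq2 (adjusted p = 0.00569). Irf1, an interferon-induced factor, had 23.7 and 26.3 CPM against 18.9 and 19.2 CPM. Without overlap 9 genes of this list were lower and 1, Ptpn2, was higher, against 23.8% of all tested genes in either direction. Ptpn2 had 52.7 and 49.8 CPM against 55.9 and 57.6 CPM, a log2 fold change of 0.15 ± 0.09 (edgeR adjusted p = 0.506). Pias1, at 42.7 and 39.6 against 40 and 44.7 CPM, overlapped. The receptor genes Ifnar1, at 58.2, 80.2, 61.7 and 61.7 CPM, and Ifnar2, at 47.8, 55.4, 49.5 and 49.5 CPM, overlapped between groups, as did Jak1 at 165 to 182 CPM.

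A wider list of 75 other interferon-induced genes, of which 59 were tested, held values in both directions. In edgeR 0 passed the adjusted threshold, and the median log2 fold change was -0.09. At an unadjusted p under 0.05, 8 were lower (6.7% of all genes) and 5 higher (7.52%). The 8 include Gbp8, with counts of 16 and 16 in control and 0 and 0 in knockdown libraries. It passed the filter on low counts through the controls, so that only a lower value could be found for it. Cd274, the gene of the checkpoint ligand PD-L1, had 19.7 and 19 CPM in control and 11.9 and 11.3 CPM in knockdown libraries, a log2 fold change of -0.74 ± 0.13 (edgeR adjusted p = 0.0701). Lgals9 and Pml followed with log2 fold changes of -0.50 ± 0.10 and -0.80 ± 0.18. DESeq2 called these 3 and Ifitm3 and Slfn2 lower, and 0 of the 59 higher, against 2.6% of all tested genes called lower and 2.49% called higher. Psmb8, an immunoproteasome subunit, was higher in both knockdown libraries, at 56.1 and 53.3 CPM in control and 79.7 and 65.5 CPM in knockdown libraries (edgeR adjusted p = 0.182), followed by Rnf213 and Phf11d with log2 fold changes of 0.32 ± 0.12 and 0.44 ± 0.17. The chemokine genes Cxcl10 and Ccl5, often used as readouts of this response, had log2 fold changes of -0.28 ± 0.13 and 0.06 ± 0.28.

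**Figure D5:**
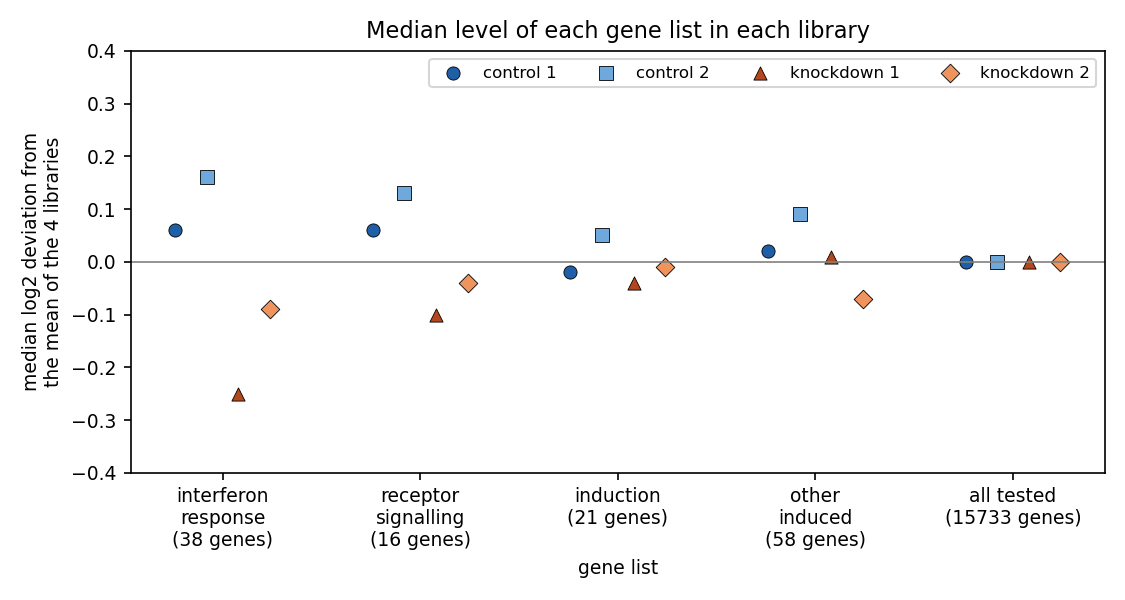
Median log2 deviation from the mean of the 4 libraries (0.5 CPM added) in each library for the tested genes of each list and for all tested genes; each point is 1 library, and a gene in several lists is counted once. The interferon response genes lie at 0.06 and 0.16 in control and -0.25 and -0.09 in knockdown libraries, and all tested genes at 0.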

How the data were processed

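The members and gene lists were chosen with earlier results of these data known. RNA sequencing of 4 libraries of BV-2 cells was analysed from 2 deposited tables. The deposited values were estimated counts per Ensembl gene, whole numbers that were not normalised; Bowtie 0.12.2 and build mm8 are named per the submitters' processing notes, while counting program and strand use are not given in the sources used here. FPKM, as the second table's values are called per the file headers, are fragment numbers that the authors divided by gene length and depth. Coordinates of 21093 of 24422 genes (86.4%) were identical to GENCODE M21 on GRCm38, and 38 of the 41 interferon response genes in that table were among them. From 42.1% to 47.2% of values from 1 to 20 were multiples of 4, so 1 fragment was taken as 4 counts. The remaining values were not multiples of 4, and this is an assumption. The tables' other 12 sample columns match none of the labels and were left out.

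Libraries were grouped by the genotype label. The test was edgeR 4.0.16 under R 4.3.3, with TMM factors, a filterByExpr filter on the groups and a robust quasi-likelihood fit without covariates; its two-sided F test was Benjamini-Hochberg adjusted over all 15733 tested genes. CPM are TMM-scaled, and a log2 fold change below 0 means lower in knockdown libraries. Its SE is approximate: the size of the log2 fold change divided by the square root of its F statistic. No overlap means that both libraries of a group lay on one side of both of the other. Between replicates the chi-square per gene, in fragments, was 16.2 in control and 16.8 in knockdown libraries, where 1 is counting error alone. Full values were given for genes with an unadjusted p under 0.05, the 8 highest by FPKM and genes with a group under 12 counts. They were also given for genes of at least 1 CPM whose replicates differed over 1.5-fold, and near-identical pairs. Of the related lists, CPM or log2 fold changes were given for edgeR-called genes, the 3 lowest p in each direction and named pathway genes. Cgas, Ticam2, Ikbke, Cxcl10, Ccl5 and the remaining members were named after their values were seen. The alternatives were DESeq2 1.42.0, limma-voom and limma-trend on FPKM (limma 3.58.1), other scaling, filters and thresholds, counts divided by 4, a replicate block, and each library left out; a newer edgeR dispersion method was added after the data were seen. Same-numbered libraries deviated together with r = 0.0486 over 15733 genes, so the numbers were not taken as pairs. The scripts were tested on simulated counts. A gene of the related lists that the rule names is not reported here.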

Additional observations from a re-analysis of the deposited data

How the results depend on the processing

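Of the interferon response genes, Rsad2 alone passed under DESeq2-type RLE factors, library totals, the stricter filter, counts divided by 4 and the newer dispersion method. Of all genes, 0.877% to 1.28% passed in these settings. The count was 3 in DESeq2 (Cmpk2, Rsad2 and Stat2), where 5.09% of all genes passed. It was 2 (Cmpk2 and Rsad2) with no filter (1.3% of all genes) or at an adjusted p under 0.1 (1.94%). At an adjusted p under 0.01, without the robust option, in limma-voom, and in limma-trend on FPKM with 1 or 0.1 added, the count was 0. Those settings called only 7, 7, 65, 3 and 3 of all 15733 genes, in that order, so a count of 0 there says little about the set. Over the related lists the count was 7 in DESeq2, 3 with no filter, 0 without the robust option, in limma-voom and in both FPKM fits, and 0 to 1 without each library. With the replicate block it was 0 for the interferon response genes, 0 for the related lists and 0 of all 15733 genes; the numbers pair no libraries, so this is not read as a weaker effect. The median log2 fold change of the interferon response genes was -0.11 on log2(FPKM + 1), which compresses low genes, and -0.53 to -0.22 without each library. The cause of the other moves was not tested.

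Of 591 values of single interferon response genes under these alternatives, 564 kept their sign and side of the threshold, 3 newly passed, 9 no longer passed and 15 changed sign, in 7 genes that did not pass. These were Ifi47 (-0.04 with the newer dispersion method, -0.20 and -0.03 on FPKM with 0.1 and 1 added, -0.35 in limma-voom, -0.23 with the replicate block, -1.27 to 0.72 without each library) and, by library left out, Ifit1 (-0.18 to 0.85), Ifit3 (-0.88 to 0.31), Mx2 (-2.21 to 0.08), Oas2 (-0.83 to 0.29), Irf9 (-0.16 to 0.07) and Usp18 (-0.66 to 0.37). In the pathway lists the ranges across 0 were Ifnar1 (-0.38 to 0.09), Ifnar2 (-0.16 to 0.05), Jak1 (-0.02 to 0.12), Tlr4 (-2.96 to 0.03), Ticam1 (-0.19 to 0.10), Tbk1 (-0.09 to 0.08) and Pias1 (-0.04 to 0.12). Tlr4 passed without knockdown replicate 2 (adjusted p = 0.0131), a fit that leaves knockdown 1 alone and assumes it varies like the controls. With 2 libraries a group, values under 12 counts and 9 tested genes under 1 CPM were limited by depth.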
